A study of Caenorhabditis elegans with 2 samples.

Results

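The histone genes of Caenorhabditis elegans were examined for calls of F10B5.3 in chromatin immunoprecipitation followed by sequencing (ChIP-seq). A gene was taken if it is protein-coding in the Ensembl annotation of WBcel235 and its name begins with his- or hil-, and htz-1 was added, which gave 81 of the 19973 protein-coding genes on the nuclear chromosomes. The worms were whole hermaphrodites at the L4 larval stage, collected 48 hours after synchronization as starved L1 larvae. They were of strain OP529, genotype unc-119(tm4063) III; wgIs529, and carried F10B5.3 with a C-terminal GFP-FLAG tag, which was pulled down with an anti-GFP antibody. There were 2 biological replicates of 1 group, and both carried the same mutation and the same transgene, so nothing was compared between conditions. The labels do not say what drives the transgene or whether untagged F10B5.3 was also made. In whole worms, binding in few cells and weak binding in many cells cannot be told apart.

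Histones package DNA into nucleosomes, whose core is built from H2A, H2B, H3 and H4, while the linker histone H1 binds DNA between cores. The replication-dependent core genes lie in many copies, often as head-to-head H2A/H2B and H3/H4 pairs that share a promoter, and they are transcribed mostly in S phase. Variant genes such as those of H3.3 and H2A.Z are single genes that are also used outside S phase.

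A gene was given the highest signal among calls with a summit at most 1000 bp from any of its transcription start sites (TSS). Signal is the authors' value for a call, with a scale that is not stated, and it is used here to order calls within a list. The pooled list holds 30000 relaxed calls, weak ones included, and the thresholded set holds the 862 calls kept by the analysis of irreproducible discovery rate (IDR). The replicate 1 list has 22211 calls and the replicate 2 list 27642. The gene length was a multiple of 3 in 64 of 65 core genes. A model made only of coding sequence has such a length, but the length alone does not show that untranslated regions are absent. Where the model holds none, the TSS used is the start of the coding sequence.

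Strong calls lay at a few histone promoters, and most histone genes had a weak call or none. A pooled call lay near 45 of the 81 genes (55.6%), against 47.5% of all protein-coding genes, and an IDR call lay near 8 (9.88%), against 3.31%. The pooled share was above that of all genes at 1000 bp but not at 500 bp, where it was 33.3% against 34.97%. With each call given to its nearest TSS only, it was also below, at 35.8% against 42.8%. The replicate 1 list had a call near 41 of the genes, against a background of 41.1%, and the replicate 2 list near 34, against 46.7%. Both replicate lists had a call near 30 genes, 5 had one in a single replicate list and not in the pool, and 31 had none in any list. At the pooled summit itself, taken as within 100 bp, both replicates had a call for 24 of the 45 genes, 1 replicate for 12 and neither for 9. The 100 bp was set after the calls were known. Because neighbouring genes share promoters, the 45 genes with a pooled call rested on 31 distinct summits and the 8 with an IDR call on 5. Histone genes are often divergent, meaning that the next gene upstream points away from them: 29 of the 63 divergent histone genes had a pooled call and 7 an IDR call. Of all divergent protein-coding genes, 54.4% had a pooled call and 7.37% an IDR call.

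The strongest histone call lay in the 368 bp between his-67, an H4 gene, and his-68, an H2A gene, on chromosome I. Its signal was 524 in the pool, 206 in replicate 1 and 320.3 in replicate 2, and it ranked 40 of all pooled calls. The summit was 138 bp upstream of his-68 and 231 bp upstream of his-67, and the TSS of alg-5, an Argonaute gene, lay 808 bp away. All 31 bp words of this promoter occurred once in the genome. These genes form a pair apart from the larger clusters.

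The second call belonged to his-37, an H4 gene at the end of a 3-gene cluster on chromosome V. The signal was 313 in the pool, 121 in replicate 1 and 207 in replicate 2, with the pooled summit 76 bp upstream of the gene. Around his-37, 99.9% of 31 bp words were unique. In the same cluster, the promoter between his-35, an H2A gene, and his-41, an H2B gene, had a pooled signal of 79.98 and was not in the IDR set. Inside that promoter the replicate 1 signal was 26.9 and the replicate 2 signal 50.03. The weakest IDR call of the whole set had a signal of 86.5, so the his-35/his-41 call lay just under it.

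**Figure D1:**
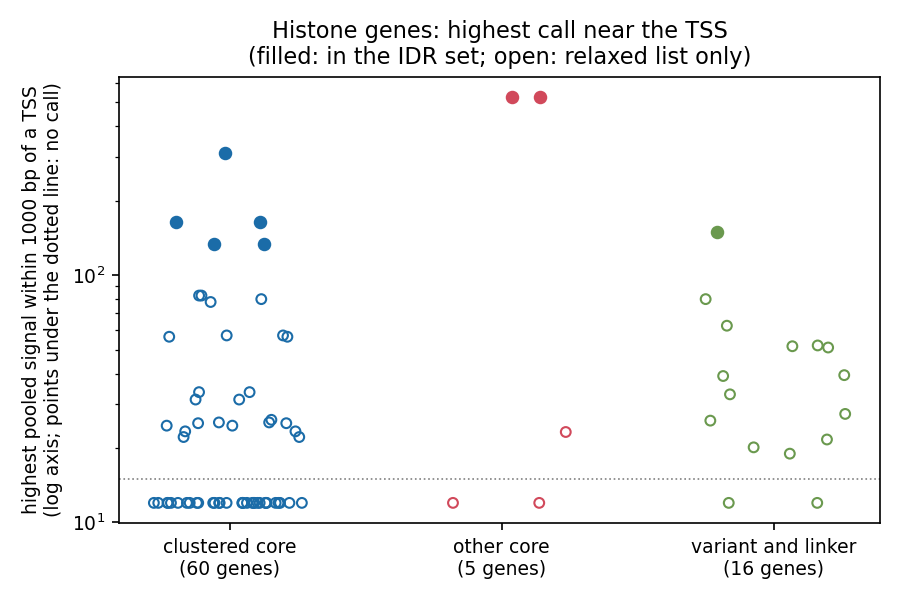
Highest pooled signal within 1000 bp of a TSS on a log axis, 1 point per histone gene, for the 60 clustered core, 5 other core and 16 variant and linker genes. Filled points are in the IDR set, open points are not, and points under the dotted line had no pooled call. Genes that share a promoter share a call. The highest pair is his-67 and his-68 at 524, and 32 of the 60 clustered core genes sit in the strip without a call.

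Among the clustered H2A/H2B pairs, only his-61/his-62 on chromosome IV had an IDR call. Its signal was 163 in the pool, 49.8 in replicate 1 and 113 in replicate 2. The H3/H4 pair in the same cluster, his-59 and his-60, had a pooled signal of 57.0, and inside its promoter the signals were 19.6 and 34.9 in replicates 1 and 2. In replicate 1, stronger calls lay elsewhere within 1000 bp, at 23.1 for his-60 and 25.4 for his-59. Both promoters of this cluster therefore had a call in the pooled list and in each replicate list, and the H2A/H2B promoter had the higher one in each. The H3/H4 promoter had no IDR call.

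Among the H3/H4 pairs, his-6/his-5 on chromosome V had an IDR call. The signal was 134 in the pool, 61.1 in replicate 1 and 74.1 in replicate 2. The neighbouring H2A/H2B pair of that cluster, his-8/his-7, had no summit inside its promoter in any list. The pair his-31/his-32 on chromosome IV came next, with 82.7 in the pool, 30.6 in replicate 1 and 48.2 in replicate 2, and its call was below the IDR set. The H2A/H2B pairs on either side of it, his-29/his-30 and his-33/his-34, have identical 253 bp promoters in opposite orientation and had no summit inside them in any list.

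Stretches of these promoters are printed from the + strand of WBcel235 (the same assembly as ce11), 5′ to 3′, to set called promoters beside uncalled ones. All lie between the TSSs of 2 divergent genes, upstream of both. Capitals mark AAGTGAGA, ATGTGTCC, GGGACACA and TATAAA on either strand. Where words overlap, the capitals run on. Each stretch spans at least 50 bp on either side of the pooled summit, or of the middle of the promoter where there was none. It was lengthened where AAGTGAGA, ATGTGTCC or GGGACACA lay a little further out. Words beyond a stretch are not shown, such as 1 AAGTGAGA and 2 TATAAA in the his-38/his-40 promoter. Not every promoter is printed. Among those left out, his-35/his-41 was called and lacks ATGTGTCC, and his-4/his-3 holds it without a pooled summit. Counts over all promoters follow below. The first 4 had a pooled summit inside and the next 2 had none although all of their 31 bp words are unique. The last had none and no unique word, and it is identical to the his-28/his-27 promoter over all 238 bp.
his-61/his-62 promoter, chrIV:7486329-7486455: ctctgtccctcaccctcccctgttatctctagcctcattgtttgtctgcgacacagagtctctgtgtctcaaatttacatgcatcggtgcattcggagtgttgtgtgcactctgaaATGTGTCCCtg
his-60/his-59 promoter, chrIV:7488014-7488116: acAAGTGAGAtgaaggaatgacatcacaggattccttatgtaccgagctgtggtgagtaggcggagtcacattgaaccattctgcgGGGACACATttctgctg
his-31/his-32 promoter, chrIV:8334096-8334214: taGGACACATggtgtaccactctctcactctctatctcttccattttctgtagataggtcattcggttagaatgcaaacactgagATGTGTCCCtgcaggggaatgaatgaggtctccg
his-6/his-5 promoter, chrV:8535004-8535117: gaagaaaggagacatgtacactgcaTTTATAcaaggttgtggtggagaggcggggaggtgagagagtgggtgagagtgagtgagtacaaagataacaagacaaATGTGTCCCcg
his-2/his-1 promoter, chrV:16042351-16042451: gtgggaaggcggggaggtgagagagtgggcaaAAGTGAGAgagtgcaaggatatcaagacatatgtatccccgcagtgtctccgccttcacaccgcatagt
his-38/his-40 promoter, chrX:7309942-7310042: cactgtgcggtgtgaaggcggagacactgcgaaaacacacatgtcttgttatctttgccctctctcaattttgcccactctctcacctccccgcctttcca
his-50/his-49 promoter, chrV:8847773-8847873: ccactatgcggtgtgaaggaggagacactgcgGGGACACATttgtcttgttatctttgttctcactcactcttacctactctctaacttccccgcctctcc

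The 31 head-to-head promoters between 2 histone genes, 227 to 368 bp long, comprised 21 distinct sequences. Several word lengths were looked at after the calls were known, and 8 bp words were kept. The words AAGTGAGA, ATGTGTCC and GGGACACA were each in 13 of the 21 sequences, more than any other 8 bp word. ATGTGTCC and GGGACACA overlap on opposite strands, so they count largely the same sites.

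ATGTGTCC was in 5 of 6 distinct promoters with a pooled summit, 1 of 5 uncalled promoters of mostly unique sequence and 7 of 10 uncalled promoters of repeated sequence, and GGGACACA gave the same counts. AAGTGAGA was in 2, 3 and 8 of the same sets. In a window from 250 bp upstream of the TSS to 50 bp downstream, ATGTGTCC was in 58.0% of histone genes and 0.786% of all protein-coding genes, GGGACACA in 58.0% and 0.621%, and AAGTGAGA in 45.7% and 2.66%. The words were chosen as the most shared among these promoters, so their excess there is a description. The nearest ATGTGTCC lay 0.5 bp from the pooled summit at his-67/his-68, 20.5 bp at his-31/his-32, 38.5 bp at his-60/his-59, 56.5 bp at his-6/his-5 and 69.5 bp at his-61/his-62. The his-35/his-41 promoter has none. TATAAA was in 62.96% of histone windows and 37.9% of all windows, and CCAAT in 53.1% and 45.5%. Whether any of these words bears on the calls was not tested.

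Calls at head-to-head histone promoters were found where the sequence is unique. Uniqueness was measured as the share of 31 bp words that occur once in the genome on either strand. Of the 31 promoters, 6 had a pooled summit inside, and their unique shares ran from 79.1% to 100%. The 20 promoters with at most 13.6% unique words had no summit in any list. Of the 11 with a higher share, 5 had no pooled summit inside: his-63/his-64, his-8/his-7, his-4/his-3, his-2/his-1 and his-38/his-40, of which his-4/his-3 had a replicate 1 summit of signal 21.3. Among head-to-head promoters of 200 to 400 bp over all protein-coding genes, 32.7% of the 446 with at least 50% unique words had a pooled summit inside and 7.85% an IDR summit. Among the 33 with fewer, the shares were 6.06% and 0%. Of these 33, 20 are the repeated histone promoters without a summit, so the low shares largely restate the histone result. The 2 with a pooled summit are not histone promoters. These limits of length and share were set after the calls were known.

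**Figure D2:**
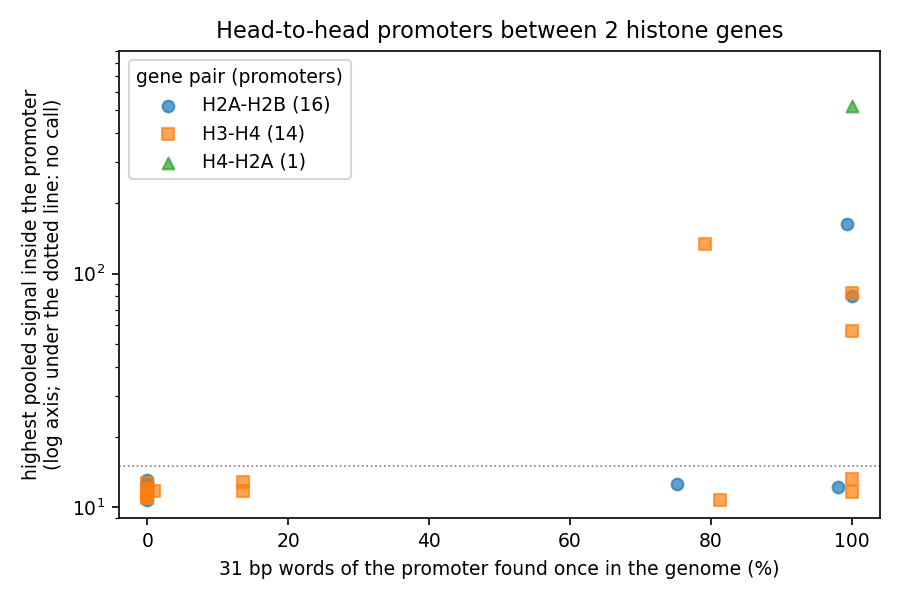
Share of unique 31 bp words (%) against the highest pooled signal inside the promoter (log axis) for the 31 head-to-head promoters between 2 histone genes, 16 H2A-H2B, 14 H3-H4 and 1 H4-H2A. Points under the dotted line have no pooled summit inside and are spread vertically only to be seen. The 6 promoters with a summit have 79.1% or more unique words, and 5 promoters of similar share lie under the line.

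Over all histone genes, the share with a pooled call also rose with the unique share in the 1000 bp on either side of the gene's start. With under 50% unique words, 13 of 41 histone genes had a pooled call and 0 an IDR call, against 9.65% and 0.742% of all protein-coding genes in that range. From 50% to 90%, it was 15 and 4 of 22, against 37.4% and 1.77%. At 90% and over, it was 17 and 4 of 18, against 50.3% and 3.63%. Histone genes thus had a higher share of pooled calls than all genes in each range at 1000 bp. In the lowest range this rested on distant calls. The summit of the highest call lay 528 to 967 bp from the TSS in all 13 genes. No head-to-head histone promoter with under 50% unique words held a summit. Shares by range were not computed at 500 bp. Histone genes share promoters and are not independent, so no test was made. The ranges were chosen after the calls were known. The sources used here do not say how reads that map to several places were treated before peak calling. The share of unique sequence moved with the share of called genes, and its part in the missing calls was not tested.

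**Figure D3:**
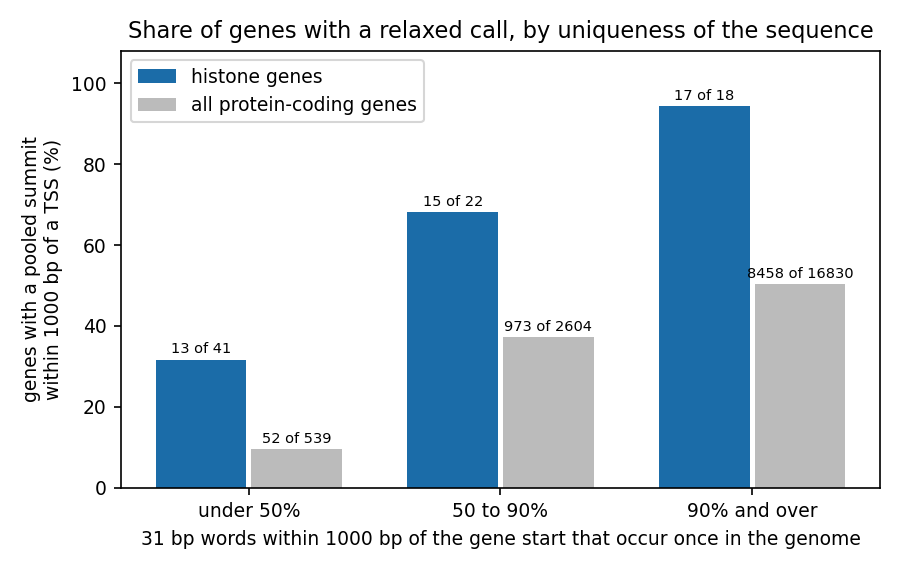
Share of genes (%) with a pooled summit within 1000 bp of a TSS, for histone genes and all protein-coding genes, in 3 ranges of the share of unique 31 bp words around the gene start. Numbers above the bars are genes with a call of all genes in that range. The histone bars rise from 31.7% to 94.4% and the bars of all genes from 9.65% to 50.3%.

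The largest cluster held 13 genes on chromosome II, from his-16 to his-42. Only 6.87% of its 31 bp words are unique, and a single pooled summit lay inside it, at a signal of 22.2 between his-9 and his-25, both H3 genes. That summit was in a unique stretch between copies and had no counterpart near these genes in either replicate list. At the right edge, his-42, an H3 gene, had a pooled signal of 77.9, with 30.3 in replicate 1 and 46.1 in replicate 2 within 100 bp of the same summit. The highest replicate 1 call near his-42, at 43.1, lay 307 bp from it. The pooled summit lay 866 bp upstream and within 200 bp of a small RNA gene, C47F8.9. None of the other 10 genes of the cluster had a call in any list.

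The largest cluster without a call held 8 genes on chromosome V from his-28 to his-18, with 0.909% unique words and no summit in any list. It holds H4 and H3 genes at his-28/his-27 and his-17/his-18 and H2A and H2B genes at his-21/his-22 and his-20/his-19. The promoters of his-21/his-22 and his-20/his-19 are the same 292 bp as those of his-51/his-52 and his-54/his-53 in the 6-gene cluster from his-50 to his-53, which had 0% unique words and no summit either. The lists therefore hold no summit at any of these 4 identical promoters.

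**Figure D4:**
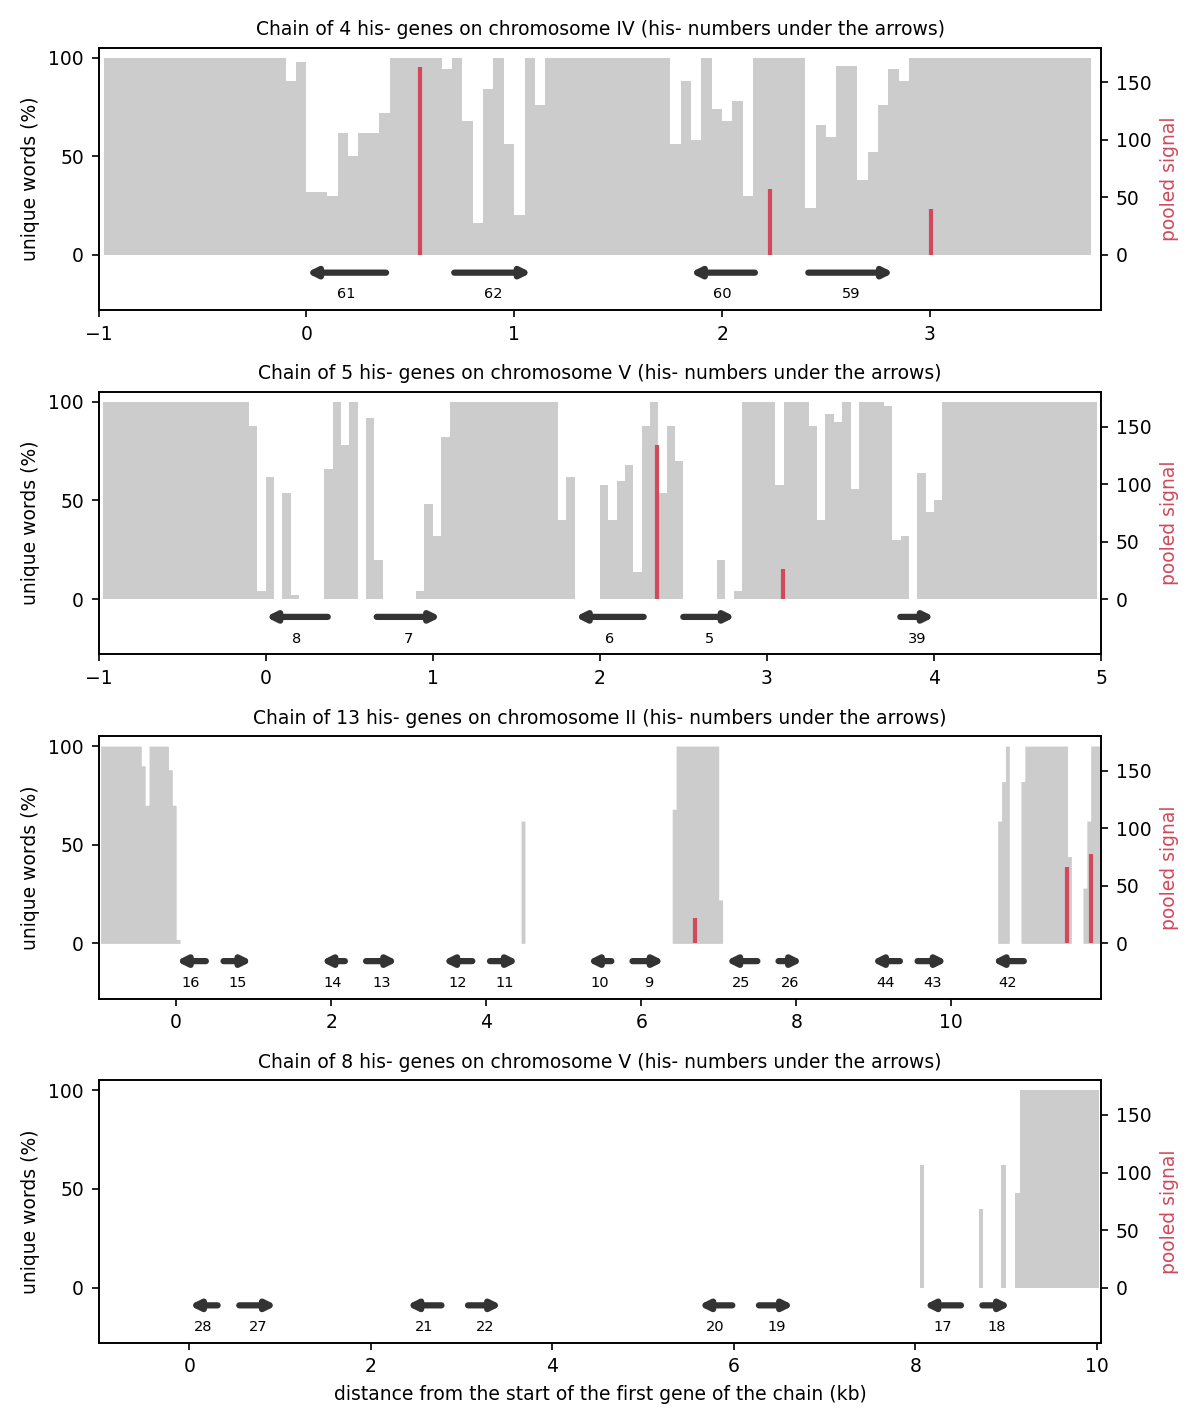
Share of unique 31 bp words in 50 bp steps (grey, left axis, %) and pooled summits (red lines, right axis, signal) along 4 histone clusters, by distance from the start of the first gene in kb. Arrows are genes with their his- numbers and point in the direction of transcription. In the 4-gene and 5-gene clusters the highest lines, at 163 and 134, stand between divergent genes, and the 8-gene cluster has no line.

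The pair his-57/his-58, an H2A and an H2B gene on chromosome IV, had a pooled signal of 56.3, with 20.2 in replicate 1 and 24.1 in replicate 2. Its summit lay outside the shared promoter, 528 bp downstream of a his-57 TSS and in unique sequence. The pooled calls of the H2A/H2B pairs his-47/his-48 (33.6) and his-65/his-66 (31.4) also had their summits outside the promoter, past the end of his-47 and of his-65. At his-2/his-1, whose promoter held none, the call of 24.6 lay 199 bp downstream of the his-2 start. Over all 45 histone genes with a pooled call, the summit was upstream of or at the TSS in 28. The deposited −log10 q-value was under 1 for the calls of 25 of them.

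By gene group, 28 of the 60 clustered core genes (46.7%) had a pooled call, close to the 47.5% of all protein-coding genes, and 5 (8.33%) an IDR call, against 3.31%. Of the 5 other core genes, which lie in pairs or alone, 3 had a pooled call and 2 an IDR call. The 16 variant and linker genes were taken from a list of names, which holds his-35 although RefSeq names its product histone H2A and it lies in a 3-gene cluster. Of these, 14 (87.5%) had a pooled call and 1 (6.25%) an IDR call. The mean share of unique words within 1000 bp was 32.7% in clustered core genes, 84.9% in other core genes and 96.2% in variant and linker genes. The variant and linker genes had the highest share of pooled calls. Their IDR share rested on 1 gene and cannot be set apart from that of the clustered core genes. Within a range of unique sequence, too few genes were left to order the groups. From 50% to 90%, 13 of 17 clustered core and 1 of 2 variant and linker genes had a pooled call. The share of all protein-coding genes in that range was 37.4%. At 90% and over the counts were 2 of 2 and 13 of 14, against 50.3% of all genes. The median pooled signal of variant and linker genes with a call, 39.3, was near that of clustered core genes with a call, 33.6, and of all protein-coding genes with a call, 32.9. By histone, a pooled call lay near 15 of 20 H3 genes, 9 of 16 H4 genes, 7 of 18 H2A genes, 5 of 16 H2B genes and 7 of 9 H1 genes. Against the 47.5% of all genes, the shares were 75.0% for H3, 56.2% for H4, 38.9% for H2A, 31.2% for H2B and 77.8% for H1. The H3 and H2A counts include variant genes. Among core genes alone, it was 10 of 15 for H3 (66.7%) and 5 of 16 for H2A (31.2%). Many of these summits were distant from the TSS. They lay 573 to 866 bp away at the H3 genes his-9, his-25, his-42, his-45, his-55 and his-63. At the H2A genes his-47, his-57 and his-65 they lay 528 to 635 bp away. Inside the head-to-head promoters, a pooled summit lay in 3 of 14 H3/H4 and 2 of 16 H2A/H2B promoters. The median share of unique words within 1000 bp also differed. It was 27.4% for core H3, 41.96% for core H4, 23.8% for core H2A, 15.8% for core H2B and 99.5% for H1. Paired genes share calls, and a difference between histone types was not tested.

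The variant with an IDR call was htz-1, which encodes H2A.Z, on chromosome IV. Its signal was 150.1 in the pool, 75.6 in replicate 1 and 70.3 in replicate 2. The summit lay 325 bp upstream of htz-1 and 151 bp from the TSS of the divergent gene wapl-1, whose product is a cohesin release factor, so the call cannot be given to htz-1 alone. Among the genes of the replication-independent H3.3, his-71 had a pooled signal of 62.4 and his-72 one of 33.0. The his-72 summit lay 38 bp from the TSS and within 200 bp of a small RNA gene, Y49E10.36. Within 100 bp of the pooled summit, the replicate 1 and 2 signals were 31.14 and 31.10 at his-71 and 14.6 and 20.3 at his-72. The highest replicate calls within 1000 bp of the TSS lay elsewhere for his-71 in replicate 2, at 36.6 and 622 bp from the pooled summit. For his-72 they lay 282 bp from it in replicate 1, at 28.5, and 1001 bp from it in replicate 2, at 29.3. The H3.3-like genes his-74, his-70 and his-69 had 51.0, 25.8 and 20.1. The summit for his-74 was 26 bp from the TSS of ccch-3, and that for his-69 was nearest to rcq-5. At his-70 neither replicate list had a call, and at his-69 neither had one within 100 bp of the pooled summit. The his-70 summit lay in mostly repeated sequence, with 16.9% unique 31 bp words in the 50 bp on either side.

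Of the 9 linker histone H1 genes, 7 had a pooled call, against 47.5% of all genes, and 0 were in the IDR set, which so few genes cannot set apart from the 3.31% of all genes. The highest were his-24 at 52.0 and hil-5 at 51.6. For his-24 the signals were 21.9 in replicate 1 and 32.4 in replicate 2, and for hil-5 they were 27.9 and 27.4. The hil-5 summit was nearest to the TSS of rnt-1, a Runx transcription factor gene. The others were hil-4 at 39.4, hil-3 at 39.1, hil-7 at 27.5, hil-2 at 21.6 and hil-6 at 19.0. The lowest signal of the pooled list is 18.4, so hil-6 lay near its floor. Within 100 bp of the pooled summit, both replicates had a call for hil-4 and hil-3, only 1 for hil-7 and for hil-2, and neither for hil-6. No list had a call at hil-1 or hil-8.

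**Figure D5:**
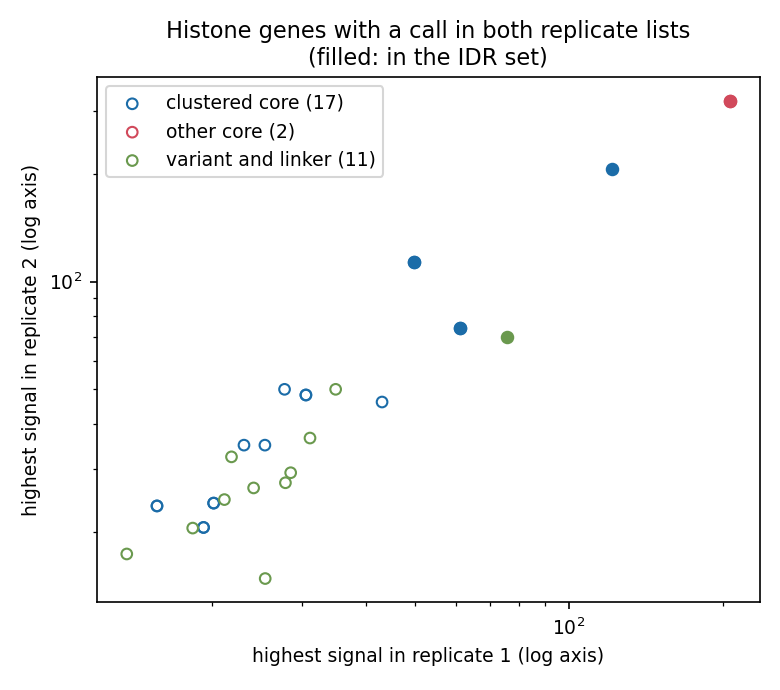
Highest signal in replicate 1 against replicate 2, both on log axes, for the 30 histone genes with a call in both replicate lists. Filled points are in the IDR set. Each axis takes the highest call within 1000 bp of a TSS, which need not be the same site in both, and genes with the same calls in both lists coincide. The his-67/his-68 point, at 206 and 320.3, is the highest on both axes.

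Shared neighbourhoods touch other calls as well. The pooled summit was nearest to the TSS of a gene that is no histone gene for 9 of the 45 histone genes, and such a TSS lay within 1000 bp of the summit for 16. The short genes his-39 and his-73, whose histone type the RefSeq product names do not give, had 26.004 and 23.2. For his-73 the summit was nearest to W09H1.3.

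Other genes of histone biology were looked at for comparison, the CENP-A histone genes hcp-3 and cpar-1 among them. Of these 21 genes, 15 had a pooled call, 2 of them in the IDR set, against 47.5% and 3.31% of all genes. The IDR calls were at lin-53, an RbAp46/48 histone chaperone gene, and symk-1, the gene of a symplekin that acts in histone mRNA 3′ end cleavage. The signals in the pool and in replicates 1 and 2 were 240.2, 91.8 and 149 at lin-53. At symk-1 they were 109.6, 35.9 and 74.7. The median pooled signal of the 15 was 35.7, close to the 32.9 of all genes with a call. The stem-loop binding protein gene cdl-1 had 40.3, the CENP-A genes hcp-3 and cpar-1 34.6 and 44.9, the ASF1 gene unc-85 51.2, and the CAF-1 genes chaf-1 and chaf-2 21.7 and 22.8. The signals were 57.5 at ssl-1 of the SWR1 complex, 52.1 at xnp-1 (ATRX), 35.7 at nap-1, 29.6 at hira-1, 27.3 at nasp-2, 23.1 at rba-1 and 21.4 at cpsf-2. Within 100 bp of the pooled summit, neither replicate had a call at cdl-1 or chaf-1. Only 1 replicate had a call there at hcp-3, cpar-1, rba-1, chaf-2, nap-1, nasp-2 and cpsf-2, and both had one at the rest of the 15. No pooled call lay near asfl-1, nasp-1, cpsf-3 or the FACT genes hmg-3, hmg-4 and spt-16.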

How the data were processed

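Per the file notes and headers, the authors called peaks in each replicate and in the pool of both, against a control, and deposited these relaxed lists with the set kept by IDR. Not given in the sources used here are the aligner, peak caller, their versions, the IDR threshold and the treatment of reads that map to several places. The deposited signal of a call has no stated scale, and the deposited −log10 q-value reaches a ceiling of 3.24. The ce11 lists were used, and the ce10 lists were not. Read counts were not used, so depth is unknown, and counts of genes have no interval for replicate error.

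A call belongs to a gene if its summit lies within 1000 bp of a TSS of Ensembl release 115. RefSeq symbols were matched by WormBase ID for 81 of 81 genes, because 22 carry another name in Ensembl. Clusters are chains of at least 3 his- genes with gaps of at most 5000 bp. Words of 31 bp were counted over the whole WBcel235 genome. Promoter sequences came from the RefSeq genome of that assembly, and 8 bp words were used in place of the shared 31 bp words that had been planned. The word counts and the assignment of calls were tested on simulated data. The named genes are every gene with an IDR call, the 20 highest pooled signals, all variant and linker genes, the largest called and uncalled clusters and a list of genes of histone biology. The members and lists were chosen with earlier results of these data known. With 1 group, no test was made, and counts stand beside those of all 19973 genes. Python 3.11.15, numpy 2.4.6 and pandas 2.3.3 were used.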

Additional observations from a re-analysis of the deposited data

How the results depend on the processing

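Of 75 alternative values over 12 results, 49 stayed within 1.5 times of the count or within the spread of the value, and 26 moved. For the median signal, the spread was the standard deviation of the medians of the 2 single replicate lists. For unique shares it was a 95% interval that counts overlapping words as independent. That interval is too narrow, and all alternatives of the unique shares moved. The tally is therefore no measure of replicate error. Counts depended on how a call is given to a gene, and the pooled share of histone genes fell below that of all genes under 2 of the 3 alternatives of this kind. Within 500 bp, 27 histone genes (33.3%) had a pooled call and 13 clustered core genes, against 34.97% of all genes. The median signal of the histone genes was then 57.0. With each call given to its nearest TSS only, 29 histone genes (35.8%), 17 clustered core genes and 1 other core gene had a pooled call, and the IDR counts were 4, 3 and 1, with 0 for variant and linker genes. Under that rule 42.8% of all genes had a pooled call and 2.44% an IDR call. Within 2000 bp, IDR calls lay near 15 histone genes (18.5%), 11 clustered core and 2 variant and linker genes, against 4.89% of all genes. A pooled call lay near 58 histone genes (71.6%), against 61.2% of all genes, and near 5 other core genes. Chains with gaps of at most 2000 bp left 7 other core genes with a pooled call. The median signal was 21.9 to 30.8 when a single replicate list stood for the pool, and the scale of signal may differ between lists. Mean unique shares for words of 50 bp, words of 100 bp and a 250 bp window were 36.3%, 40.5% and 23.7% in clustered core genes, 92.8%, 98.6% and 79.2% in other core genes, and 98.0%, 99.5% and 98.1% in variant and linker genes. The order of the groups was the same in each. No paired analysis was possible because there is a single group. The ranges of unique share, the promoter comparison and the word search were added after the calls were seen.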
